A study of Mus musculus with 18 samples.

Results

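The distal ends of the 19 mouse autosomes were examined in a list of open chromatin regions from embryonic stem cells. A peak was counted as distal where it lay on chromosomes 1 to 19 and started within 1 Mb of the end of the last peak of its chromosome. This gave 1432 peaks of 160099 on these chromosomes and of 166066 in the whole list. They make up 0.894% of the autosomal peaks and lie in 0.791% of the length spanned by autosomal peaks. The choice rests on position alone. No peak crossed the inner edge of a window (0 of 19 chromosomes). The peak nearest to that edge started 1.04 to 51.5 kb inside it, and the nearest outside started 0.775 to 149 kb before it.

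The assay was ATAC-seq, which reads accessible DNA from where a transposase could insert adapters. The cells, a line named dTKO, carry the genotype Suv39h1fl/fl, Suv39h2-/- and Setdb1fl/fl, which concerns 3 enzymes that methylate histone H3 at lysine 9, and were given auxin (100 µg/ml) and dTAG13 (0.5 µM), compounds that trigger degradation of suitably tagged proteins. Harvests were made at 0, 3, 6, 12, 24 and 48 h. Each time has 3 biological repeats, and 0 h was the baseline of the design. All libraries, those of 0 h included, share the Suv39h2 deletion and the treatment label, and the labels do not say which proteins are tagged or whether the line is 1 clone. The values here are positions of peaks merged over all 18 libraries, so changes after 0 h were not analysed here and no value has an error between libraries. The spread given below is that between chromosomes.

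Mouse chromosomes are named from the centromere, which sits at one tip, so the distal end is the tip far from it. Each tip is capped by telomeres, long arrays of a short repeat bound by the shelterin proteins. Telomeres and the DNA beside them carry histone H3 lysine 9 trimethylation and HP1 proteins in mouse cells, and loss of Suv39h enzymes is known to lower that mark at mouse telomeres. Long arrays of telomere repeats cannot be placed by short reads, and the windows here are counted from the last peak of each chromosome. Whether peaks outside promoter windows hold telomere repeats was not examined, because their sequence was not available.

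Promoters under distal peaks are shown first, since they are the sequences at which these peaks meet genes. Each line is the RefSeq promoter window of 300 bp (GRCm38.p6), written 5′ to 3′ on the gene's strand, with GC boxes (GGGCGG, or the same letters on the other strand, CCGCCC) in capitals. The first 5 lie under distal peaks and were picked from the genes named by the rule given below. All 5 hold a GC box, whereas 60.4% of all distal protein-coding promoters with a peak do. Other genes named by the same rule had a peak over the promoter and no GC box. These included Rfc3, Tmem196, Depdc1a, Dennd5b, Samd11, Plekhn1, Ppp2r3d, Gm21814, Gm32856, Gm20939 and B230307C23Rik. The 5 are therefore examples only. Vmn2r129, a vomeronasal receptor gene and the last protein-coding gene of chromosome 4, lies under none and was added as a contrast after its value was seen.
Rtel1 (chr2:181319474-181319773, + strand): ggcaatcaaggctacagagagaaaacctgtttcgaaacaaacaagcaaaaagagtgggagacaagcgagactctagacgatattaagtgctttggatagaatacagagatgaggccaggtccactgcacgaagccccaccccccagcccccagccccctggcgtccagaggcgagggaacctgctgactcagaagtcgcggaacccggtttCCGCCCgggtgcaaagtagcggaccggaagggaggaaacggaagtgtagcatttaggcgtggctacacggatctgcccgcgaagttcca
Wls (chr3:159839400-159839699, + strand): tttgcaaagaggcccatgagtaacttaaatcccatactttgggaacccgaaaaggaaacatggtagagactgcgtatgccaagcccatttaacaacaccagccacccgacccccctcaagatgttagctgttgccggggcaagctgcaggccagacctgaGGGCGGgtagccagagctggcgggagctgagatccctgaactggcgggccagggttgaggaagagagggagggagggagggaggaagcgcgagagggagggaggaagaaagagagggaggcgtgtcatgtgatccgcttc
Noc2l (chr4:156235765-156236064, + strand): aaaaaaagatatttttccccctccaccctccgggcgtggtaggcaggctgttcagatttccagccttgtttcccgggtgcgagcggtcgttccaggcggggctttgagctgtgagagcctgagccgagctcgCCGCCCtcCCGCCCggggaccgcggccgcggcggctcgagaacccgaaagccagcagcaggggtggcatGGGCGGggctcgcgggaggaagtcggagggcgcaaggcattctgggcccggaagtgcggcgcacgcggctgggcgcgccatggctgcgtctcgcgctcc
Nrp1 (chr8:128358823-128359122, + strand): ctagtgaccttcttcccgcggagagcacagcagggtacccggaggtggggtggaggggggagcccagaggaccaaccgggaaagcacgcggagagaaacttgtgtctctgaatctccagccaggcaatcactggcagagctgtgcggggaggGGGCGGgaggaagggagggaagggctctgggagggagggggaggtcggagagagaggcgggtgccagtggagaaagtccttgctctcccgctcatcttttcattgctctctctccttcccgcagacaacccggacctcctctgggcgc
Csf2ra (chr19:61228369-61228668, - strand): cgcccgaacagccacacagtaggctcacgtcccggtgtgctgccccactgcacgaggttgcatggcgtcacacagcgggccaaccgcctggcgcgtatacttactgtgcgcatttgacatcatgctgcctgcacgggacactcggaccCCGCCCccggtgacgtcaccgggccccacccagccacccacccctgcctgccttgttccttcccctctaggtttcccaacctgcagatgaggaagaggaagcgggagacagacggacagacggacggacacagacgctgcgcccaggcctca
Vmn2r129 (chr4:156330853-156331152, + strand): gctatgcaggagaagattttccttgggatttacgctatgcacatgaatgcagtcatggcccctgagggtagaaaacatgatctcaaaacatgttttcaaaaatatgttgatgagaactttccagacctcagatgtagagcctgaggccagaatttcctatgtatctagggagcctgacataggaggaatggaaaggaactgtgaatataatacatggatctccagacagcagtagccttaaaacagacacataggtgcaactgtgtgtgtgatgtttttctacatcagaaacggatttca

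The promoter of Rtel1, which encodes a helicase that unwinds the loops at telomere tips, lay under a peak of 1062 bp and held 18 CpG sites and 1 GC box. That of Wls, which encodes the carrier of Wnt proteins to the cell surface, lay under a peak of 1952 bp and held 11 CpG sites and 1 GC box. Noc2l, which encodes an inhibitor of histone acetylation, had a peak of 1002 bp, 34 CpG sites and 3 GC boxes. Nrp1, a co-receptor for semaphorins and VEGF, had a peak of 3341 bp, 14 CpG sites and 1 GC box, and Csf2ra, a subunit of the receptor for GM-CSF, a peak of 3404 bp, 23 CpG sites and 1 GC box. The window of Vmn2r129 held 2 CpG sites and 0 GC boxes. The 5 open promoters thus each held more CpG sites than that of Vmn2r129.

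Over all protein-coding promoters in the distal windows, 164 of 244 (67.2%) overlapped a peak, beside 69% of those of chromosomes 1 to 19. No promoter window was listed for chromosome 18, so it is absent from both shares. The 164 with a peak had a median of 18 CpG sites and a GC content of 60.3%, and a GC box stood in 60.4% of them. The 80 without a peak had a median of 1 CpG site and a GC content of 41.8%, with a GC box in 7.5%. Many of these 80 belong to olfactory or vomeronasal receptor genes, mostly on chromosome 10. On the rest of the chromosomes a GC box stood in 64.9% of promoters with a peak and 7.40% of those without. Their medians were 21 CpG sites and 61.7% GC with a peak, and 2 CpG sites and 45.7% GC without. The 2 contrasts were not tested against each other. The telomere repeat unit TTAGGG, searched on both strands, stood in 27 of 244 distal promoters (11.1%) and in 10.5% of promoters elsewhere, and 2 copies in tandem in 0 distal promoters. Over all 31396 autosomal promoter windows, GC boxes stood in 36.0% and the TTAGGG unit in 10.6%. A match of letters is a description of the sequence and not a binding site.

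The 19 distal windows differed widely in how many peaks they held. The lowest had 27 peaks per Mb, the median 74 and the highest 135, whereas the rest of the same chromosomes ran from 53.2 to 107 peaks per Mb. Chromosomes 4, 15, 11, 6 and 7 had the fullest ends, with 135, 126, 115, 107 and 103 peaks per Mb, against 68.2, 65.3, 107, 59.4 and 67.8 on the rest of those chromosomes. Chromosomes 3, 14, 12 and 17 had the emptiest, with 27, 37, 39 and 43, against 53.2, 54.0, 62.0 and 75.4 on the rest. The coefficient of variation between chromosomes was 41.7% for the distal windows and 18% for the rest, whose spans are far longer and average over more DNA.

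**Figure D1:**
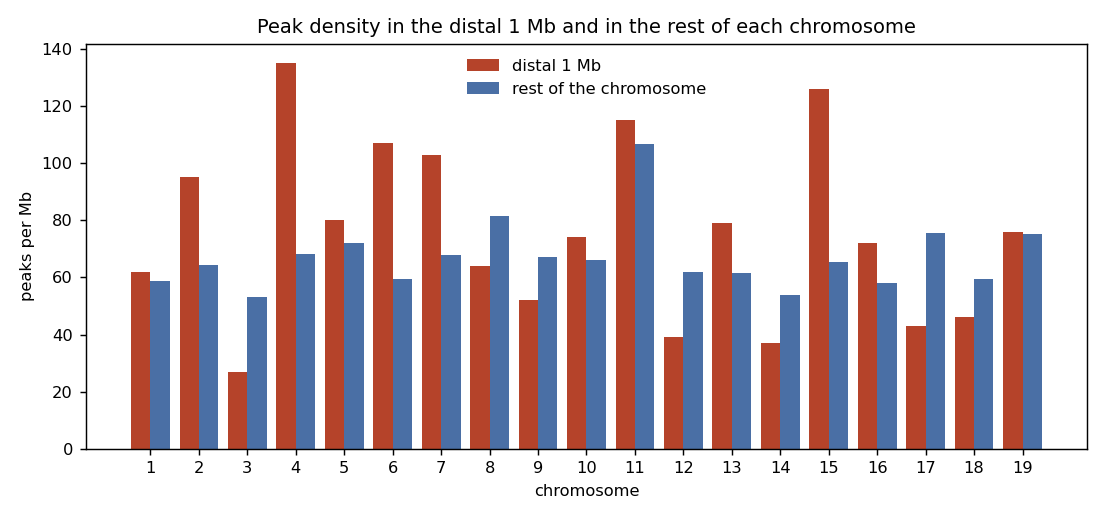
Peaks per Mb in the distal 1 Mb (left bar of each pair) and in the rest of the chromosome (right bar) for chromosomes 1 to 19, with no error bars because the list is merged. Distal windows run from 27 on chromosome 3 to 135 on chromosome 4, and the right bars from 53.2 to 107.

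Taken over chromosomes, the distal windows held 75.4 ± 31.4 peaks per Mb and the rest 67.2 ± 12.1 (SD, n = 19 chromosomes). The mean difference was 8.21 peaks per Mb (95% interval -5.84 to 22.2), the distal window being higher on 12 of 19 chromosomes and lower on 7. The difference was smaller than the spread between chromosomes and did not pass the test (adjusted p = 0.434, two-sided permutation test). Without chromosome 4 it was 4.95 and without chromosome 15 it was 5.29. Among peaks more than 2000 bp from a gene end it was 2.87 (higher on 10, lower on 9), and the mean log2 ratio of the densities was 0.055. Its direction depended on what the end was set against. Against the adjacent 10 Mb, which held 84.1 peaks per Mb, the mean difference was -8.71 and the distal window was lower on 11 of 19 chromosomes (adjusted p = 0.406, permutation test). Against the 1 Mb at the opposite, centromeric end, which held 95.1 peaks per Mb, it was lower on 13 of 19 (adjusted p = 0.149, permutation test). No passing difference in density was thus found in either direction.

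**Figure D2:**
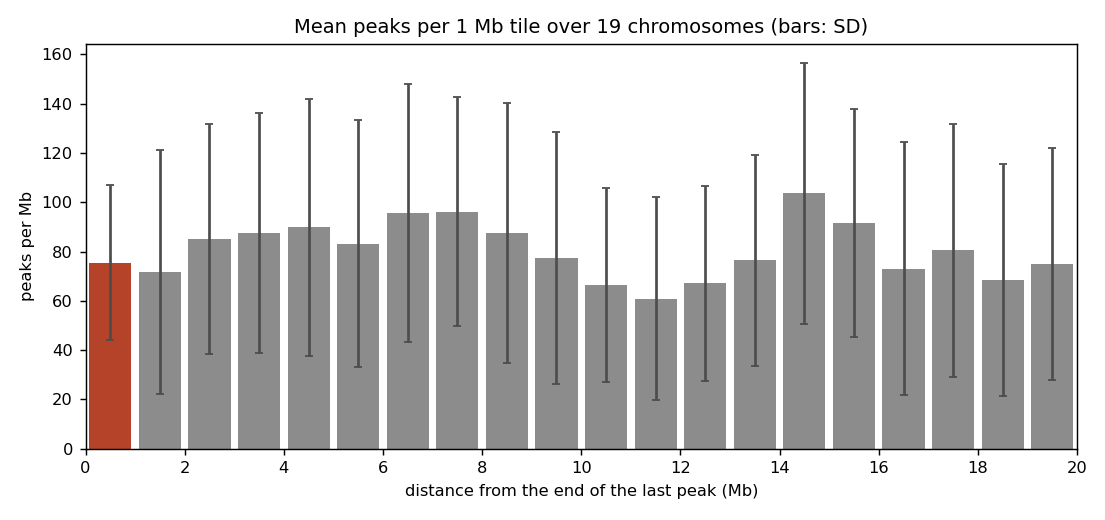
Mean peaks per tile of 1 Mb over 19 chromosomes against the distance from the end of the last peak, with bars of 1 SD between chromosomes. The distal tile (coloured, 75.4) and the next one (71.8) lie below the tiles from 2 to 9 Mb, which run from 83.3 to 96.2.

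Ranked among tiles of 1 Mb of its own chromosome, the distal tile stood in the upper part on most chromosomes. On 12 of 19, fewer than 50% of the other tiles held more peaks. On chromosome 4, 15 of 152 other tiles held more (9.87%), on chromosome 6 15 of 145 (10.3%) and on chromosome 15 11 of 99 (11.1%). At the other extreme, 112 of 155 other tiles held more than the end of chromosome 3 (72.3%) and 58 of 90 more than that of chromosome 17 (64.4%). No end was the fullest or the emptiest tile of its chromosome.

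Widths of distal peaks ran from 198 to 3426 bp with a median of 606 bp, against 198 to 10001 bp and a median of 578 bp on the rest. The median per chromosome was 595 ± 80.6 bp in distal windows and 578 ± 15.0 bp on the rest (SD, n = 19), a mean difference of 17.2 bp (95% interval -18.4 to 52.9, higher on 12 of 19, adjusted p = 0.434, permutation test). Without chromosome 1 the difference was 26.1 bp. It was 1.45 bp among peaks more than 2000 bp from a gene end (higher on 9 chromosomes, lower on 9), 38.4 bp among peaks wider than the median and 11.2 bp with a window of 2 Mb. Chromosome 4 had the widest distal peaks, with a median of 710 bp against 593 bp on its rest, and chromosome 1 the narrowest, with 421 bp against 563 bp. Of the distal peaks 7.47% were wider than 1500 bp (95% Wilson interval 6.22 to 8.95), beside 6.46% of the rest. Together the distal peaks covered 1058 kb, on average 5.57% of a window, and peaks covered 4.74% of the rest.

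A gene end was a window of 500 bp either side of an annotated start or end of a gene of any kind. Of the distal peaks 222 of 1432 (15.5%, Wilson interval 13.7 to 17.5) had their midpoint there, against 18191 of 158667 (11.5%, 11.3 to 11.6) on the rest. These intervals cover counting error only and treat neighbouring peaks as independent. Per chromosome the shares were 13.8% ± 6.44 in distal windows and 11.5% ± 1.21 on the rest (SD, n = 19), a mean difference of 2.30 percentage points (95% interval -0.70 to 5.30), higher on 13 of 19 and not past the test (adjusted p = 0.434, permutation test). Without chromosome 4 it was 1.44 points. Chromosomes 4 (28.9%) and 2 (24.2%) had the highest distal shares, against 11.1% and 12.3% on their rest, and chromosome 3 (3.70%, 1 of 27 peaks) the lowest, against 10.6%.

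**Figure D3:**
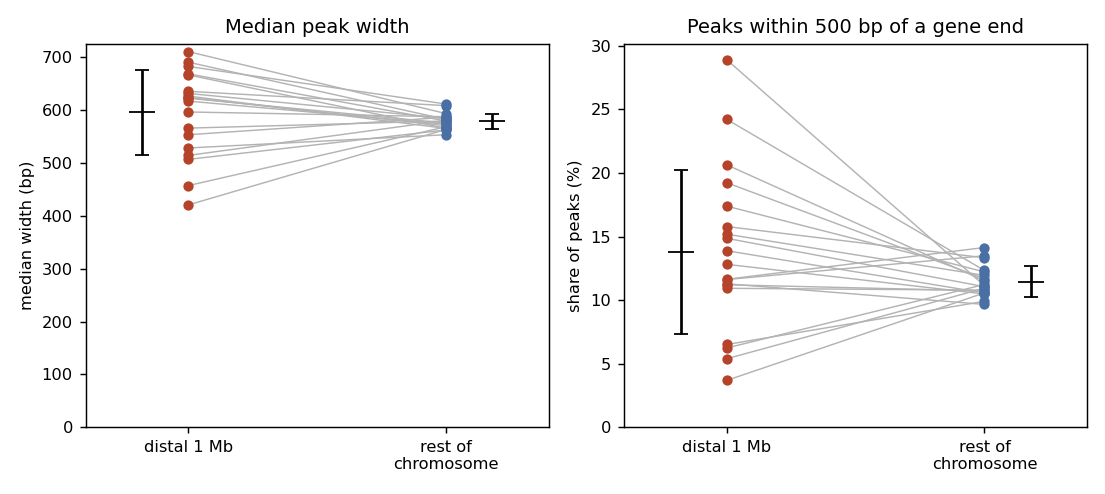
Median peak width (left panel, bp) and share of peaks within 500 bp of a gene end (right panel, %) in the distal 1 Mb and in the rest of the chromosome; each line joins the values of a chromosome, and black bars give the mean ± SD over 19 chromosomes. Distal windows spread from 421 to 710 bp and from 3.70% to 28.9%, with the values of the rest closely grouped between them.

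Sorted by place, 157 distal peaks (11%) lay over a promoter window, 101 (7.05%) at another gene end, 530 (37.0%) in a gene body and 644 (45.0%) between genes. On the rest the shares were 8.42%, 5.06%, 48.6% and 37.9%. Peaks of chromosome 18 could not be sorted to a promoter window, because none was listed for it. Pooled over chromosomes, annotated genes took up a like part of the DNA, 47.8% of the distal windows and 49.4% of the rest. Single windows ran from 15.2% on chromosome 17 to 87.5% on chromosome 14. Averaged over chromosomes, the density of distal peaks within genes was 79.5 ± 37.7 per Mb against 79.8 ± 13.8 on the rest. Between genes it was 77.7 ± 33.9 per Mb against 54.7 ± 9.80 (SD, n = 19). Pooled, the densities were 79.3 against 79.6 per Mb within genes and 71.7 against 53.9 between genes. The density between genes was higher in the distal window on 13 of 19 chromosomes. This split was made after the values were seen and was not tested.

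The fullest part of the window was its last 100 kb. Counted back from the end of the last peak, that bin held 217 of the 1432 peaks, with 11.4 ± 5.05 per chromosome, and the 9 bins further in averaged 7.11 ± 3.54 (SD, n = 19). The last bin exceeded the mean of the other 9 on 16 of 19 chromosomes, the exceptions being 4, 6 and 15, and held more peaks than any of them on 8. Chromosome 11 had 22 peaks there against a mean of 10.3 in the other bins, chromosome 10 had 17 against 6.33, chromosome 18 had 16 against 3.33 and chromosome 1 had 16 against 5.11. The bin ends at a peak by construction, and without that peak its mean would be 10.4. Taking out that peak does not make the bins alike, because the other 9 were not placed on a peak. What this placing adds to the count was not tested. The bins were set after the values were seen, so no test is given.

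**Figure D4:**
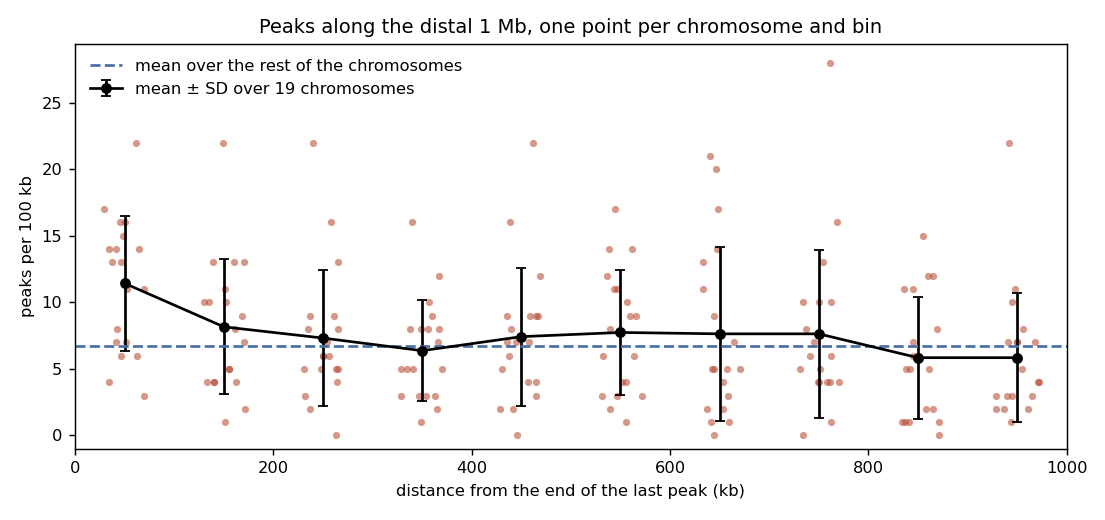
Peaks per bin of 100 kb against the distance from the end of the last peak, with a point for each chromosome and black points and bars for the mean ± SD over 19 chromosomes; the dashed line is the mean of the rest of the chromosomes (6.72 per 100 kb). The bin nearest the end averages 11.4, and the others average 5.84 to 8.16. The bin nearest the end was placed on a peak by construction, and the others were not.

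Of the 217 peaks of the last 100 kb, 171 (78.8%) had their midpoint more than 2000 bp from any gene end, whether inside or outside a gene. The share was 71.1% of the other 1215 distal peaks and 76.9% of peaks on the rest of the chromosomes, so that of the last 100 kb was near the share elsewhere. Their median width was 583 bp, against 607 bp for the other distal peaks. On chromosome 1 all 16 lay that far from a gene end, and on chromosome 11 20 of 22. The last peak of a chromosome was 234 to 1159 bp wide with a median of 487 bp, and 15 of 19 last peaks lay more than 2 kb from any gene end. Only the last peak of chromosome 6 (chr6:149585789-149586531, 743 bp) lay within 500 bp of an end, that of Gm21814. The last peak of chromosome 14 was the most isolated, 124 kb from the nearest gene end. How well short reads can be placed in these stretches was not tested.

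The end of chromosome 4 holds 43 protein-coding genes and 135 peaks, whereas the ends of chromosomes 3, 12, 14, 17 and 18 hold 1 to 3 protein-coding genes and 27 to 46 peaks. Across the 19 windows, the number of protein-coding genes and the peaks per Mb had a Pearson correlation of 0.66 and a Spearman correlation of 0.77, and leaving out chromosomes 4 and 10, the 2 farthest from the median number of genes, Pearson's value was 0.66. All points come from the same merged list, and the number of genes also counts gene ends at which peaks gather. Against tiles of the same chromosome with a like number of protein-coding genes, a comparison added after the values were seen, the distal tile held 75.4 peaks and the others 79.4 (adjusted p = 0.542, permutation test). Like tiles were few where genes were many, with 1 for chromosome 4 and 3 each for chromosomes 10 and 15. The p-value was adjusted together with the main p-values of the other measures.

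**Figure D5:**
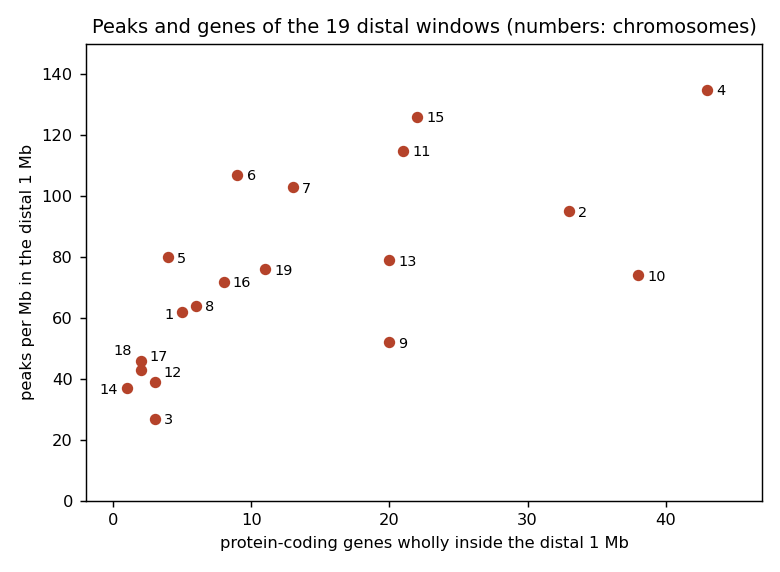
Peaks per Mb in the distal 1 Mb against the number of protein-coding genes that lie beyond its inner edge, a point for each of the 19 chromosomes, labelled with its number. Chromosome 4 lies at the upper right with 43 genes and 135 peaks, and chromosome 10 lies low for its 38 genes, with 74 peaks.

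The distal windows hold 264 protein-coding genes, counting all that lie beyond the inner edge. Called open where a peak reached to within 500 bp of one of their 2 annotated ends, 181 of them were (68.6%, Wilson interval 62.7 to 73.9). The share over all protein-coding genes of chromosomes 1 to 19 was 72.8%, so the pooled share was near the background. Averaged over chromosomes it was 78.4% ± 24.4 in distal windows and 73.8% ± 6.06 on the rest (SD, n = 19), a mean difference of 4.63 percentage points (95% interval -7.45 to 16.7), higher on 14 of 19 and not past the test (adjusted p = 0.441, permutation test). It was 7.20 points with a window of 2 Mb and 2.01 with gene ends widened to 2000 bp. The end of chromosome 10 stood apart, with 3 of 38 genes open. Without that chromosome the mean difference was 8.74 points, and without chromosome 14, whose window holds 1 gene, 3.06. Without chromosome 10, singled out after its value was seen, the pooled share was 78.8% (178 of 226), against 72.7% on the rest. These sides are unlike, because this drops most distal receptor genes and leaves those of the rest in. Without olfactory and vomeronasal receptor genes on both sides the shares were 79.3% and 78.0%.

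Chemosensory receptor genes fill much of the end of chromosome 10; the families and genes in this paragraph were chosen after their values were seen. The windows hold 31 olfactory receptor genes, all on that chromosome, of which 1, Olfr812, had a peak at an end, a narrow one of 277 bp, and the nearest peaks of the 31 lay at a median of 11.7 kb. Vomeronasal receptor genes had no such peak in 6 of 6 cases (0 open), at distances of 0.773 to 6.05 kb. Beside them, Neurod4, a neuronal transcription factor gene, had a peak of 684 bp over its start. Without these receptor families, 180 of 227 distal genes (79.3%) had a peak, against 14713 of 18870 (78.0%) on the rest. With them, the rest had 14783 of 20287 (72.9%). Receptor genes thus mostly lacked a peak on the rest of the chromosomes too, and this is not particular to the distal windows. A cluster of chemokine receptor genes on chromosome 9, which guide blood cells, included 7 of 8 genes with no peak at their ends, whereas 72.8% of all protein-coding genes had one; the difference was not tested. Cxcr6 lay 32.9 kb and Ccr1 3.38 kb from the nearest peak, while Xcr1 had a peak over an end. That peak lay over promoter windows of the neighbouring gene Fyco1, and the RefSeq promoter window of Xcr1 itself had none.

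The protein-coding gene nearest each distal end had a peak at an end on 14 of 19 chromosomes, near the share of 72.8% over all protein-coding genes. These were Cr2 (chromosome 1), a complement receptor, Wls (3), Rfc3 (5), a subunit of the clamp loader in DNA replication, Gm21814 (6), Mrgprd (7), a receptor of sensory neurons, Gm32856 (8), Ppp2r3d (9), Gm9631 (11), Tmem196 (12), Fgf14 (14), which binds sodium channels, B230307C23Rik (16), Gm20939 (17), Gm45871 (18) and Csf2ra (19). The peak at Mrgprd lay 0.219 kb beyond its outer end, and the RefSeq promoter window of Mrgprd itself had none. Wls (chr3:159839650-159938666) ends 1.01 kb before the end of the last peak and Gm21814 (chr6:149566082-149586163) 0.368 kb before it. The peaks over Gm21814, Gm32856, Gm9631, Gm20939 and Gm45871, for which no function is given here, were 1126, 1140, 1497, 1212 and 997 bp wide. The 5 genes without one were Gm14496 (2), Vmn2r129 (4), Vmn2r87 (10), Tcstv3 (13) and Mucl2 (15), with nearest peaks at 4.35, 1.85, 0.789, 2.48 and 3.20 kb. Tcstv3 lies beyond the last peak of its chromosome.

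In the fullest window, on chromosome 4, the next 5 genes inward from Vmn2r129 were all open. In that whole window 37 of 43 protein-coding genes were open, beside 72.8% of all those of chromosomes 1 to 19. Samd11, Noc2l, Klhl17, an actin-binding adaptor, Plekhn1 and Perm1, a regulator of muscle mitochondria, each had a peak of 677 to 1486 bp over an end, Noc2l and Klhl17 sharing 1 of 1230 bp. The peak at Perm1 lay over the promoter window of a noncoding neighbour, and the RefSeq promoter window of Perm1 itself had none. On chromosome 15, 3 of the 6 genes nearest the tip had no peak at an end, while 18 of 22 in its whole window were open. Mucl2 and Glycam1, a ligand of L-selectin, lay 3.20 and 9.87 kb from a peak, and Gtsf2, of a family in the piRNA pathway, 0.541 kb. Ppp1r1a, an inhibitor of protein phosphatase, had a peak of 2105 bp. Pde1b, a phosphodiesterase, and Nckap1l, an actin regulator of blood cells, lie side by side and shared a peak of 1661 bp. The shared peak lay over a promoter window of Pde1b.

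The sparsest ends hold few protein-coding genes, 3 on chromosome 3 and 1 on chromosome 14, of which 2 and 1 were open, beside 72.8% of all. On chromosome 3, Depdc1a, a mitotic gene, and Wls had peaks of 971 and 1952 bp at an end, and Rpe65, the isomerase of the visual cycle, lay 9.86 kb from the nearest peak. On chromosome 14 Fgf14 is the one protein-coding gene that lies wholly beyond the inner edge, a gene of 703 kb with 26 peaks in its body, which are 26 of the 37 peaks there. Its outer end had a narrow peak of 367 bp, and its RefSeq promoter, further in, a peak of 1372 bp. The largest gap between neighbouring distal peaks, 282 kb, was on chromosome 17, and the window of chromosome 14 had 1 of 162 kb.

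The widest distal peak measured 3426 bp (chr9:124422542-124425967) and lay across an end of Gm20783. It was followed by 3404 bp at Csf2ra (chr19:61225244-61228647), 3341 bp at Nrp1 (chr8:128356818-128360158), 3231 bp inside Dennd5b and 3156 bp inside Gm20939 (chr17:94876064-94879219). The next lay 35.8 kb from Ccr1, at Mib2, a ubiquitin ligase of Notch signalling, inside Zbtb46, a transcription factor gene of dendritic cells, at Itga5, a fibronectin receptor subunit, and 1.38 kb from Ccnd1, the cyclin D1 gene, with widths of 3045, 2927, 2739, 2648 and 2628 bp. Of these 10 peaks, 6 lay over a RefSeq promoter window of some gene. Csf2ra, Nrp1 and Itga5 were the nearest protein-coding genes in 3 of them. The peak nearest Mib2 lay over promoter windows of its neighbour Mmp23, a metalloproteinase gene, that across an end of Gm20783 over windows of LOC108167694 and 4930526I15Rik, and that nearest Ccr1 over one of Gm51701. The genes Gm20783 and Gm20939 end 61.0 and 7.34 kb before the end of the last peak, and Nrp1 796 kb before it.

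Several genes of stem cell and heterochromatin biology lie in these windows, and those named in this paragraph were chosen after their values were seen. Cbx5, which encodes HP1 alpha, a reader of the lysine 9 mark, lies near the end of chromosome 15 (chr15:103191546-103239904) and shares a peak of 1824 bp over its promoter with its neighbour Hnrnpa1, an RNA-binding protein gene. It held 13 peaks in its body, and a second promoter lay under a peak of 1352 bp. Resf1, whose product works with SETDB1 in mouse embryonic stem cells, lies at the end of chromosome 6 (chr6:149309409-149335663) with a peak of 756 bp at its start. On chromosome 7 the growth factor genes Fgf3, Fgf4 and Fgf15 had peaks of 2459, 1030 and 2002 bp, Fgf4 being a factor that stem cells themselves secrete. Of 7 Hoxc genes in the window of chromosome 15, 6 had a peak at an end, of 512 to 2064 bp, beside 72.8% of all protein-coding genes, and the ends of Hoxc4 lay 0.917 kb from one, although its RefSeq promoter window overlapped a peak. Tcstv1 and Tcstv3, genes of the early embryo on chromosome 13, had none, with nearest peaks at 2.16 and 2.48 kb.

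Of 20 telomere genes listed, among them the shelterin genes Terf1, Terf2, Tinf2, Acd and Pot1a, 18 lie on autosomes and 17 of these had a peak at an end, Zscan4c being the exception at 7.65 kb, beside 72.8% of all protein-coding genes of chromosomes 1 to 19. Rtel1 (chr2:181319711-181356616) is the only one in a distal window, 657 kb from the end of the last peak. It had peaks at both ends, of 1062 bp over its promoter and 1385 bp at its other end, and 4 peaks in its body. The peak over the end of Terf1 was 2261 bp wide and that over Tert, the telomerase gene, 1265 bp.

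As a check of the labelled cell type, all 10 listed markers of embryonic stem cells, Pou5f1, Nanog and Sox2 among them, had a peak at an end. Of the markers of other cells, 3 of 8 fibroblast, 5 of 6 neural, 2 of 6 endoderm and 1 of 4 autosomal blood genes had one. The share over all protein-coding genes was 72.8%, so these counts are a weak check. A peak at a gene does not measure its transcript.

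MicroRNA genes in the distal windows mostly lay away from peaks. Of 14, 2 had a peak within 500 bp of the hairpin (14.3%), beside 309 of 905 on the rest (34.1%), and the medians of the distance were 2.63 and 1.45 kb. No test was made on so few. The mature strands below are from RefSeq, with the seed (bases 2 to 8) in capitals. They show a seed shared by miR-200b-3p and miR-429-3p and another shared by miR-29b-3p and miR-29c-3p, while those of miR-200a-3p and miR-148b-3p stand alone here.
miR-200b-3p: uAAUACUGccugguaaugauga
miR-429-3p: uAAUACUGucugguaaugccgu
miR-200a-3p: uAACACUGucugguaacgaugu
miR-29b-3p: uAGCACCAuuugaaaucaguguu
miR-29c-3p: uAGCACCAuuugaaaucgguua
miR-148b-3p: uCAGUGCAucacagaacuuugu

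The first 3 come from a cluster on chromosome 4 known for holding cells in an epithelial state. Mir429 lay 3.04 kb, Mir200a 3.91 kb and Mir200b 3.14 kb from the nearest peak. Mir29b-2 and Mir29c, on chromosome 1 and with 1 seed between them, lay 2.50 and 2.75 kb from a peak. Mir148b, on chromosome 15, lay 0.213 kb from a peak of 731 bp, and Mir7236, on chromosome 11, 0.464 kb from 1 of 1165 bp. The start sites of these transcripts can lie far from the hairpin, so these distances do not describe their promoters.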

How the data were processed

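The series measured open chromatin by ATAC-seq in 18 libraries, and the authors deposited 1 merged list of peak positions over all of them, with no count, height, score or library per peak, so depth is unknown and no library was compared with another. MACS2 2.2.7.1, Bowtie2 2.4.2 and Trimmomatic 0.36 are listed per the submitters' processing notes, as are GRCm38 and mm10, without saying what each did. The peak threshold, the merging rule, duplicate and blacklist filters and any offset of insertions are not given in the sources used here, and each could change which peaks exist or where their edges lie.

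Peaks were read as BED intervals and are printed counting from 1. Genes, promoters and microRNAs came from RefSeq tables (GRCm38.p6, whose chromosomes are those of mm10). On chromosomes 1 to 19, 328 genes starting below position 3000000 were left out because their positions are those of scaffolds or patches, which left 46714 genes, 20560 of them protein-coding. The promoter table held 31396 windows of 300 bp and 0 on chromosome 18. The 4 measures were compared between the distal window and the rest of the same chromosome with a two-sided sign-flip permutation test over 19 chromosomes (100000 resamples), Benjamini-Hochberg adjusted over the 4 measures, with a threshold of 0.05. Intervals of mean differences are 95% intervals from the SD of the differences. The test was run on simulated peaks for density and width only. Those peaks were placed at random positions without genes, so the gene-end share and the share of open genes were not checked. Chromosomes share the same libraries, so p-values describe this list, not the spread between cultures. The rule for naming genes takes the protein-coding gene nearest each chromosome end, the gene nearest each of the 10 widest distal peaks, up to 6 genes of the 2 densest and 2 sparsest windows counted from the end, and a list of telomere genes; other names are marked in the text as chosen after their values were seen. The rule, lists and members were set with earlier results of these data known. Computations used scipy 1.17.1, pandas 2.3.3 and numpy 2.4.6 under Python 3.11.15, with figures drawn in matplotlib 3.10.9.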

Additional observations from a re-analysis of the deposited data

How the results depend on the processing

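None of the 4 comparisons with the rest of the chromosome passed the test as reported, and none reached an adjusted p under 0.05 in any alternative run. No paired analysis was possible because the list is merged over libraries and its columns carry no replicate number. Direction turned in 5 cases. The difference in density was -8.71 peaks per Mb against the adjacent 10 Mb, -19.7 against the proximal 1 Mb and -4.06 against tiles with a like number of protein-coding genes, the last 2 chosen after seeing the data. For open protein-coding genes the difference was -1.56 percentage points against the adjacent 10 Mb and -2.15 when peaks of 579 bp (the median) or less were left out. The cause was not tested. With a window of 0.5 Mb the density difference was 14.2 peaks per Mb (adjusted p = 0.181, permutation test). With each chromosome left out in turn, differences ran from 4.95 to 10.5 peaks per Mb, 11.7 to 26.1 bp in width, 1.44 to 2.81 percentage points in gene-end share and 3.06 to 8.74 in the share of genes, with adjusted p of 0.220 or more. The number of distal protein-coding genes with a peak was 166 to 205 over its alternatives, against 181. Depth is unknown, so a region without a peak was not called open rather than shown closed.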
